A study of Homo sapiens with 6 samples.

Results

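The BCL2 family of apoptosis regulators was examined through 10 of its genes, picked by name from the 60656 gene rows of the count table. They were 3 guardians (BCL2, BCL2L1 and MCL1), 2 effectors (BAX and BAK1) and 5 BH3-only genes (BBC3, PMAIP1, BID, BIK and BCL2L11). Each name matched 1 Ensembl identifier, and all 10 genes had enough counts to be tested. RNA was sequenced from parental ZR-75-1 cells, an oestrogen receptor-positive human breast cancer line, after 4 days with 500 nM abemaciclib, an inhibitor of the cell cycle kinases CDK4 and CDK6, or with an equal volume of the solvent DMSO. There were 3 libraries of each treatment, all from unedited parental cells in the same medium, and the study describes them as independent biological replicates. The RB1 knockout cells that belong to the study's design were not analysed here. The results describe 1 cell line in culture at 1 dose and 1 time.

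Proteins of the BCL2 family decide whether the outer mitochondrial membrane stays intact. The effectors BAX and BAK can form pores in that membrane, which release cytochrome c and lead to caspase activation. The guardians hold the effectors and the BH3-only proteins in check, whereas BH3-only proteins, which respond to stress, either block guardians or activate effectors directly. BCL2 is well known as an oestrogen-responsive gene in luminal breast cancer.

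Library totals lay between 3317860 and 4013156 counts. The kit makes 1 read from the 3′ end of a transcript, independent of its length, so levels were compared between genes directly as CPM (counts per 1000000 counts of a library, scaled by TMM). Isoforms that share a 3′ end, such as the long and short forms of BCL2L1 or MCL1, are summed in such data. A count of 0 allowed up to 3 counts, or 0.740 to 0.909 CPM, for counting error only. The cells had counts in every library for all 8 luminal markers fixed for this check, at 111 CPM or more. Of 10 markers of basal, mesenchymal, immune and endothelial cells, 8 (among them KRT5, VIM and PTPRC) were at 0 in every library, CD68 had 1 count in all, and COL1A1 gave the rest, so that the list summed to 36 to 52 counts per DMSO library and 40 to 57 per abemaciclib library. As a check of the treatment, MKI67, a marker of cycling cells, was at 526 ± 31.4 CPM with DMSO and 5.00 ± 2.28 CPM with abemaciclib (mean ± SD of 3 libraries each). Abemaciclib replicate 3 differed more from the other 2 abemaciclib libraries (chi-square per degree of freedom of 6.90 and 7.29, where counting noise alone gives about 1) than those differed from each other (3.48). It also had the highest share of mitochondrial counts, at 18.3% against 15.6% to 16.6% in the other libraries.

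With abemaciclib, 3 of the 10 family genes were higher (BCL2, BCL2L1 and BID) and 2 were lower (BBC3 and BAX), with the quasi-likelihood test of edgeR and a limit of 0.05 on p adjusted over 10863 genes. Of all genes tested, 12.5% were higher and 13.3% lower, so that calls in either direction made up 25.7%. The 2 guardians BCL2 and BCL2L1 rose by 1.94-fold and 1.62-fold, while BBC3 fell to 0.225 and BAX to 0.309 of the DMSO level. MCL1, BAK1, PMAIP1, BIK and BCL2L11 did not pass the threshold. The median log2 fold change of the 10 genes was 0.09, beside −0.0018 over all genes tested. The libraries of the treatments did not overlap for 6 of the 10, with abemaciclib above in 3 (the 3 higher genes) and below in 3 (the 2 lower genes and PMAIP1). Of all genes tested, 19.1% were separated with abemaciclib above and 20.1% with it below, 39.1% together. As these are bulk samples, fewer cells with a transcript and less of it per cell cannot be told apart. The same 5 genes passed the threshold in the same direction without abemaciclib replicate 3.

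**Figure D1:**
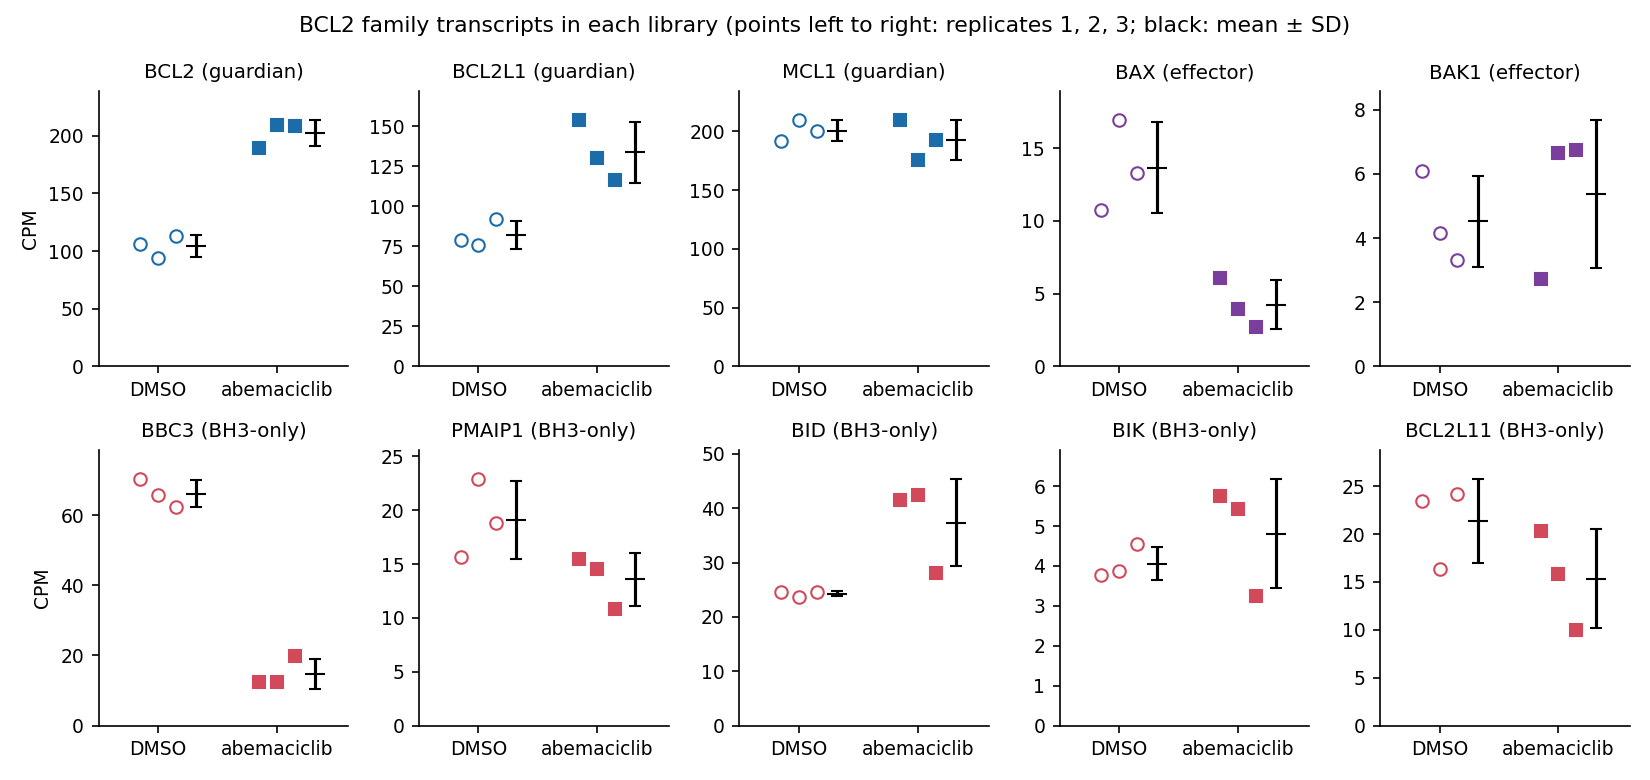
CPM (y axis, from 0, a separate scale per panel) of the 10 family genes in each of the 3 DMSO libraries (open circles) and 3 abemaciclib libraries (filled squares), with the mean ± SD in black. BCL2 and BCL2L1 sit higher and BBC3 and BAX lower in every abemaciclib library, whereas the MCL1 values of the treatments overlap.

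Among the guardians, BCL2, which lies on chromosome 18 of GRCh38 from 63123346 to 63320128 on the minus strand and gives the family its name, stood at 106, 94.2 and 113 CPM in DMSO replicates 1, 2 and 3. In the abemaciclib libraries it stood at 189, 209 and 209 CPM. All 3 treated libraries exceeded all 3 controls, and the gap was larger than the range within either group. Its log2 fold change came to 0.96 (standard error, SE, 0.11, with adjusted p = 9.97e-08 by edgeR), and only 447 of the 10863 genes tested had a higher one.

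BCL2L1, on chromosome 20 from 31664452 to 31723989, encodes BCL-XL, a guardian that binds both BAX and several BH3-only proteins. It was at 78.9, 75.7 and 92.4 CPM with DMSO and at 154, 131 and 117 CPM with abemaciclib. The groups did not overlap, and the abemaciclib libraries were spread more widely (SD 18.8 against 8.84 CPM). On the log2 scale the difference was 0.70 (SE 0.13, with adjusted p = 0.000106 by edgeR).

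MCL1, on chromosome 1 from 150560895 to 150579738, encodes a guardian whose protein turns over rapidly. Its transcript was at 192, 209.7 and 200.2 CPM with DMSO and at 209.7, 176 and 192 CPM with abemaciclib. Both groups shared most of their range. A log2 fold change of −0.06 was estimated, with a 95% confidence interval from −0.27 to 0.15 (adjusted p = 0.733 by edgeR), an interval that leaves out a change as large as that of BCL2 or BCL2L1. Levels of the MCL1 protein were not analysed here. Enzymes that add ubiquitin to MCL1 or remove it were followed through 5 genes chosen from general knowledge (HUWE1, FBXW7, USP9X, MARCHF5 and BTRC). Of these 5, 0 were higher and 0 lower by edgeR, with 0 at an unadjusted p under 0.05 and 0 by DESeq2. Over all genes tested, 12.5% were called higher and 13.3% lower by edgeR.

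The balance of the guardian transcripts therefore differed between treatments. Their order did not change in abemaciclib replicate 1, where MCL1 (209.7 CPM) stayed above BCL2 (189 CPM). With DMSO, MCL1 was highest in each library and made up 49.3% to 55.2% of the guardian sum, and BCL2 (94.2 to 113 CPM) lay just above the highest BCL2L1 value (92.4 CPM). With abemaciclib, BCL2 (189 to 209 CPM) and MCL1 (176 to 209.7 CPM) overlapped, and BCL2L1 was below both in every library. The ratio of BCL2 to MCL1 was 0.552, 0.449 and 0.566 in the DMSO libraries and 0.903, 1.19 and 1.08 in the abemaciclib libraries, so it was higher in each treated library.

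**Figure D2:**
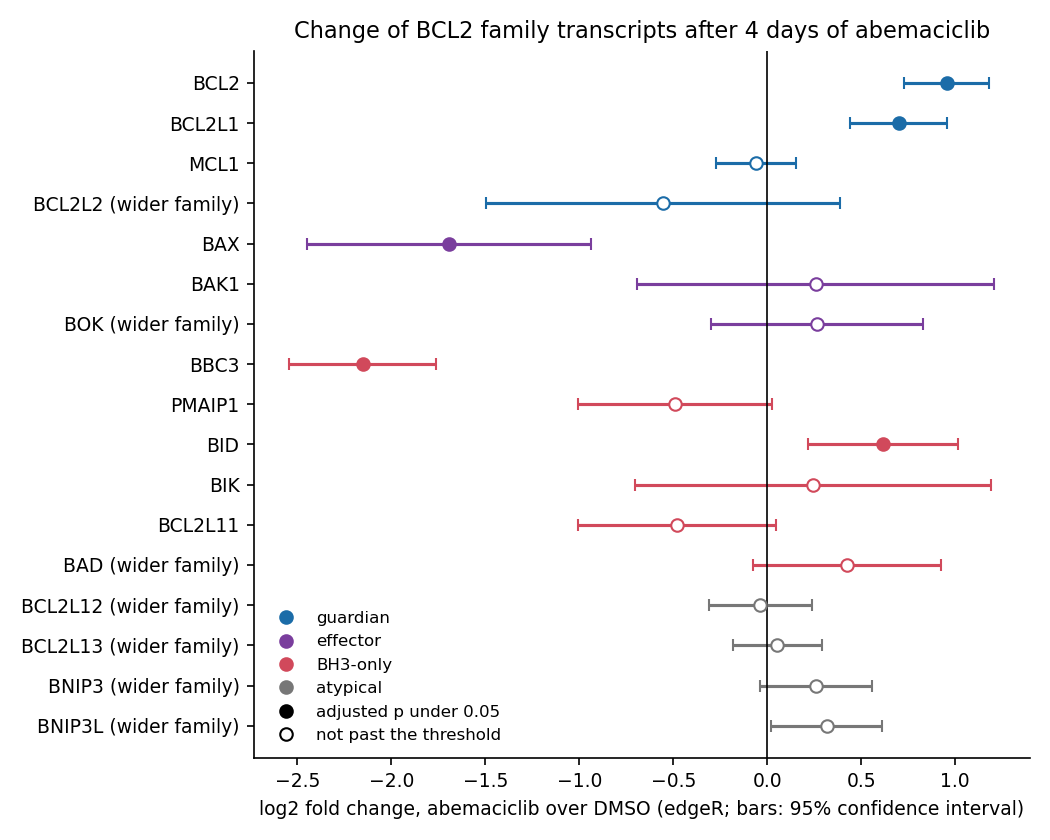
Log2 fold change of abemaciclib over DMSO (x axis) with its 95% confidence interval for the 10 family genes and the 7 tested genes of the wider family, coloured by role, with filled points for genes past the threshold. BCL2, BCL2L1 and BID lie to the right of 0 and BBC3 and BAX to the left, and the widest intervals belong to genes with few counts such as BAK1 and BIK.

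Of the effectors, BAX fell and BAK1 did not pass the test. BAX, on chromosome 19 from 48954815 to 48961798, had 37, 57 and 44 counts in the DMSO libraries and 20, 16 and 10 in the abemaciclib libraries, or 10.7, 16.9 and 13.3 CPM against 6.05, 3.95 and 2.702 CPM. Every treated library was lower, but these are low counts, and the interval of the log2 fold change of −1.70 ran from −2.45 to −0.94 (SE 0.37, with adjusted p = 0.000876 by edgeR).

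BAK1, on chromosome 6 from 33572547 to 33580293, had 21, 14 and 11 counts with DMSO and 9, 27 and 25 with abemaciclib. The lowest of its 6 CPM values, 2.72, and the highest, 6.76, both came from abemaciclib libraries. Its log2 fold change of 0.26 had a 95% confidence interval from −0.69 to 1.21, so at this depth neither a rise nor a fall of 1.5-fold could be told from no change. Of the pair, BAX was the higher transcript in each DMSO library, whereas with abemaciclib their ranges overlapped (2.702 to 6.05 CPM for BAX and 2.72 to 6.76 CPM for BAK1). The 2 pseudogenes named after BAK1 had 0 counts in all libraries.

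Of the 5 BH3-only genes, 1 fell (BBC3), 1 rose (BID) and 3 did not pass the threshold. BBC3, on chromosome 19 from 47220822 to 47232766, encodes PUMA, which binds all of the main guardians and is induced by DNA damage. It was at 70.2, 65.6 and 62.4 CPM with DMSO and at 12.4, 12.3 and 19.7 CPM with abemaciclib. The treated libraries lay far below the controls, with 19.7 CPM as their highest value against 62.4 CPM as the lowest with DMSO. BBC3 had a log2 fold change of −2.15 (SE 0.19, with adjusted p = 5.46e-10 by edgeR), with 197 genes of the 10863 lower still, and this was the largest change among the 10 genes under each alternative in which all 10 were fitted.

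BID, on chromosome 22 from 17734138 to 17774770, links death receptors to mitochondria once caspase-8 has cut its protein. It was at 24.7, 23.8 and 24.5 CPM with DMSO and at 41.4, 42.4 and 28.1 CPM with abemaciclib. The DMSO libraries were nearly equal, and abemaciclib replicate 3 was closer to them than to the other treated libraries. The estimate was 0.62 on the log2 scale (SE 0.19, with adjusted p = 0.0187 by edgeR), and 0.79 without abemaciclib replicate 3 (adjusted p = 0.00177 by edgeR). The call was lost without DMSO replicate 2 (adjusted p = 0.0681), without abemaciclib replicate 1 (0.0725) or without abemaciclib replicate 2 (0.105) by edgeR, and DESeq2 kept it narrowly (adjusted p = 0.0492).

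PMAIP1, which encodes NOXA, a selective partner of MCL1, lies on chromosome 18 from 59899996 to 59904305. It was at 15.7, 22.9 and 18.8 CPM with DMSO and at 15.4, 14.6 and 10.8 CPM with abemaciclib. The groups were separated only narrowly, by 15.4 against 15.7 CPM. The log2 fold change of −0.49, with an interval from −1.01 to 0.02, did not pass the threshold (adjusted p = 0.16 by edgeR).

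BCL2L11, on chromosome 2 from 111119378 to 111168444, encodes BIM, a BH3-only protein that can activate BAX and BAK directly. It was at 23.5, 16.3 and 24.2 CPM with DMSO and at 20.3, 15.8 and 10.0 CPM with abemaciclib. The groups overlapped, and the log2 fold change of −0.48 (interval −1.01 to 0.05, adjusted p = 0.181 by edgeR) was −0.25 without abemaciclib replicate 3. A last exon of BCL2L11 overlaps the antisense gene MIR4435-2HG, which itself held 23 counts over the 6 libraries, so its counts are uncertain. None of the other 9 genes had an exon of another gene within the last 1000 bases of a last exon.

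BIK, on chromosome 22 from 43110750 to 43129712, encodes a BH3-only protein of the endoplasmic reticulum and had 12 to 22 counts in each library. Its range was 3.77 to 4.54 CPM with DMSO and 3.24 to 5.75 CPM with abemaciclib, which overlap. With a log2 fold change of 0.24 and an interval from −0.71 to 1.19, a change was not detectable at this depth.

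Set side by side, the 3 guardians and the 5 BH3-only genes moved apart in sum. Tested genes of the wider family are not in these sums. Among them, the BH3-only gene BAD was at 25.5 ± 3.58 CPM with DMSO and 34.55 ± 17.3 CPM with abemaciclib. The guardian BCL2L2 was at 6.53 ± 0.528 CPM with DMSO and 4.43 ± 2.43 CPM with abemaciclib (SD, n = 3 in each group). The summed level of the 3 guardians was 376, 379.6 and 406 CPM in the DMSO libraries and 553, 516 and 518 CPM in the abemaciclib libraries, a ratio of means of 1.365. The summed level of the 5 BH3-only genes was 138, 132 and 134 CPM with DMSO and 95.3, 90.5 and 71.9 CPM with abemaciclib, a ratio of means of 0.637. Both sums separated the treatments without overlap. The BH3-only sum divided by the guardian sum, which no scaling of a library can change, was 0.349 ± 0.0173 with DMSO and 0.162 ± 0.0204 with abemaciclib (SD, n = 3 in each group). No test was run on these sums, since the genes were chosen with results of these data known.

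The lower BH3-only sum rested on BBC3, which made up 46.4% to 50.9% of it with DMSO and 13% to 27.4% with abemaciclib. Without BBC3, the other 4 BH3-only genes summed to 68.8 ± 2.84 CPM with DMSO and to 71.1 ± 16.6 CPM with abemaciclib (SD, n = 3 in each group), which differ by less than the spread between replicates. The abemaciclib libraries held 82.9, 78.2 and 52.1 CPM of these 4, so the third library was below all DMSO libraries and the other two above them. Divided by the guardians, the 4 genes gave 0.176 to 0.180 with DMSO and 0.1499, 0.152 and 0.101 with abemaciclib. With DMSO, BBC3 was the most abundant BH3-only transcript in each library. With abemaciclib BID was the most abundant of the BH3-only genes in the sum, and BBC3, BCL2L11 and PMAIP1 overlapped one another. BAD, which is not in the sum, was above BID in abemaciclib replicate 1 (54.2 against 41.4 CPM). It was below BID in abemaciclib replicates 2 (27.9 against 42.4 CPM) and 3 (21.6 against 28.1 CPM).

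**Figure D3:**
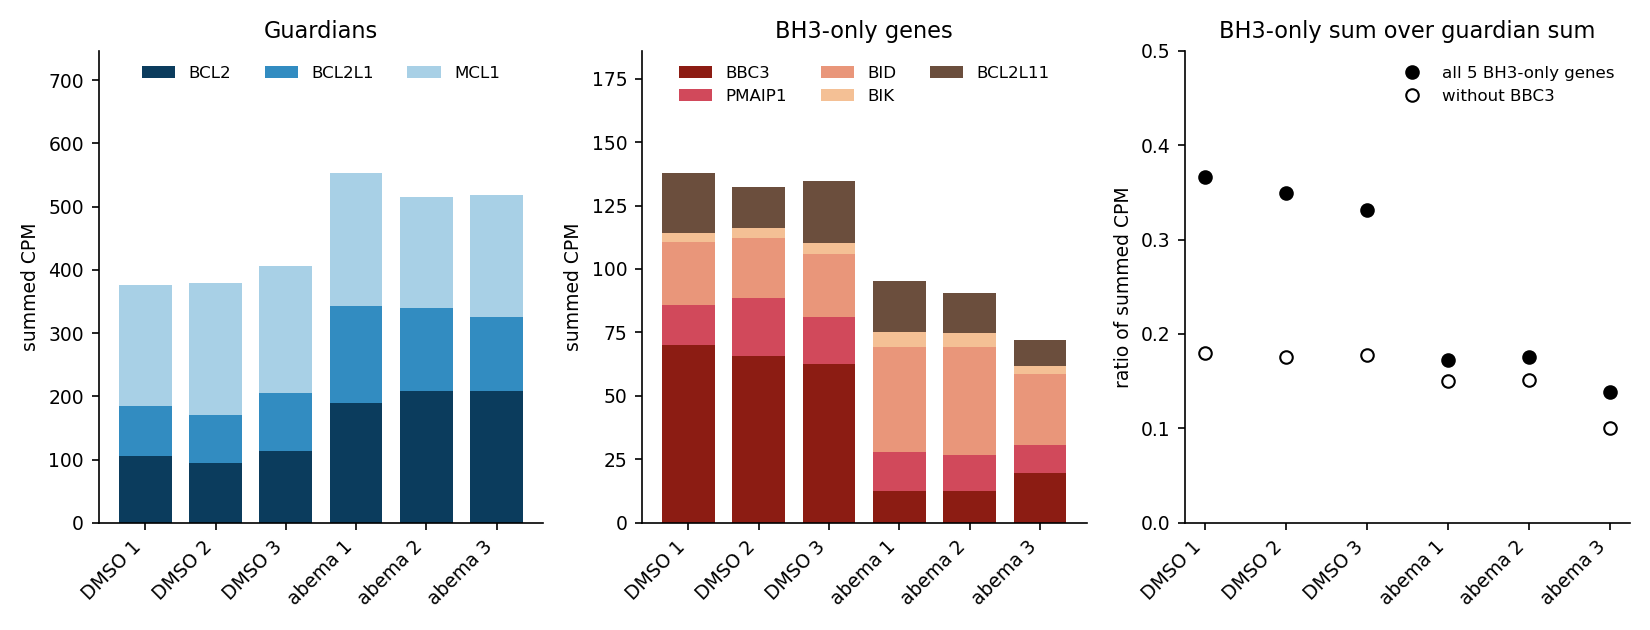
Summed CPM (y axis) of the 3 guardians (left) and 5 BH3-only genes (middle) in each library, stacked by gene, and the ratio of the sums (right) with all 5 BH3-only genes (filled) and without BBC3 (open). The ratio falls from 0.331 to 0.366 with DMSO to 0.139 to 0.176 with abemaciclib, and the BBC3 block is smaller and the BCL2 and BCL2L1 blocks are larger in each abemaciclib library than in any DMSO library.

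The promoters of BAX and BBC3, the genes that fell, and of BCL2, the family gene with the largest rise, are shown to set their sequences beside these values. The windows are from RefSeq on GRCh38.p14 and hold 250 bases before and 50 after an annotated start, 5′ to 3′ on the strand of the gene, with capitals for letters that match a motif searched. They lie at chr19:48954625-48954924 on the plus strand for BAX, chr19:47232618-47232917 on the minus strand for BBC3 and chr18:63319720-63320019 on the minus strand for BCL2.
BAX: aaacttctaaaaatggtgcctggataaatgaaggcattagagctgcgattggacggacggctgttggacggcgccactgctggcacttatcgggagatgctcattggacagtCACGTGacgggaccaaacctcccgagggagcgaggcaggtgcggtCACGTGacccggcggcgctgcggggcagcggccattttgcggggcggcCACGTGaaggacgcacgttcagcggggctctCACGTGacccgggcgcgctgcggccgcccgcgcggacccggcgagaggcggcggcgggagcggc
BBC3: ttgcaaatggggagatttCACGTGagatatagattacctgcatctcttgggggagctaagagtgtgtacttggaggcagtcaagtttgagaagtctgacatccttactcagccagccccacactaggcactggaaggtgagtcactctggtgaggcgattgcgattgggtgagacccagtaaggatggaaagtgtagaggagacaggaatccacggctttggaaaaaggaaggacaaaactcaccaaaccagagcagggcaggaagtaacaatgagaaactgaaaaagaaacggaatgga
BCL2: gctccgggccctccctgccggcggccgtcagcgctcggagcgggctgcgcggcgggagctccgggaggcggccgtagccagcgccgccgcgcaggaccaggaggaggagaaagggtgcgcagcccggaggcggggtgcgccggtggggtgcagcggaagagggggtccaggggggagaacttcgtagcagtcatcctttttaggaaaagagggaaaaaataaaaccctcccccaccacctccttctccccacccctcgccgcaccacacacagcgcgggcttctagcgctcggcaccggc

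Of the 10 genes, 8 had a window in the RefSeq table, 13 windows in all because BID has 5 starts and BCL2L1 has 2. They were searched on both strands for the E-box CACGTG (bound by MYC and related factors), the CRE core TGACGT, the amino acid response element TGATGNAA, the forkhead site GTAAACA and the E2F sites TTTCCCGC and TTTGGCGC. BAX held 4 E-boxes, beginning 138, 93, 45 and 14 bases before the start, and BBC3 held 1, beginning 232 bases before it. Of 35116 windows of the same length, 7.26% held an E-box and 0.0142% held 4 or more. The BCL2 and BCL2L1 windows held none of these motifs. BID had an E-box in 2 of its 5 windows, which overlap and share this site, PMAIP1 had a CRE core (in 7.98% of windows) and BCL2L11 a forkhead site (3.42%). The E2F sites (2.27% of windows) and the amino acid response element (3.62%) were in none of the 13. No 2 matches overlapped. A match of letters is a description of the sequence and was not tested for binding.

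In the wider family, a list of 13 further genes drawn up from general knowledge, 7 had enough counts to be tested. Of these 7, 0 were higher and 0 lower by edgeR, beside 12.5% higher and 13.3% lower over all genes tested. At an unadjusted p under 0.05 there was 1 higher (BNIP3L) and 0 lower, and DESeq2 also gave 0 in each direction. The median log2 fold change was 0.26. BCL2L2, the guardian BCL-w, had −0.56, and its 3′ end overlaps that of the readthrough gene BCL2L2-PABPN1 (0 counts). BOK, an effector relative, had 0.26. BAD, a BH3-only protein controlled by phosphorylation, had 0.42, which was −0.04 without abemaciclib replicate 1 and 0.67 without abemaciclib replicate 3 (adjusted p = 0.0128 by edgeR), and its 3′ end overlaps GPR137 on the opposite strand. BCL2L12 had −0.04, BCL2L13 0.05, BNIP3 0.26 and BNIP3L 0.32, the last of which passed the threshold without abemaciclib replicate 1 (log2 fold change 0.42, adjusted p = 0.0464 by edgeR). The libraries of the treatments did not overlap for 3 of these 7 uncalled genes, with abemaciclib above for BNIP3 and BNIP3L, which also act in the removal of mitochondria, and below for BCL2L2. Over all genes tested these shares were 19.1% above and 20.1% below. BCL2A1, BCL2L10, BMF, HRK, BCL2L14 and BCL2L15 had at most 11 counts in any library and were not tested. BCL2L14 was at 0 counts in all 6.

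Downstream of the family, 12 genes of the mitochondrial pathway were followed, and 11 were tested. The background over all genes tested was 12.5% called higher and 13.3% called lower. AIFM1 and VDAC1 were higher and 0 were lower by edgeR, with 1 lower at an unadjusted p under 0.05 (APAF1, the scaffold of the apoptosome) and 0 lower by DESeq2. VDAC1, a channel of the outer membrane, rose the most of the list, with 221 ± 3.71 CPM under DMSO and 349.9 ± 12.8 CPM under abemaciclib (SD, n = 3 in each group) and a log2 fold change of 0.66. APAF1 had a log2 fold change of −0.67 and passed the threshold without abemaciclib replicate 2 (−0.92, adjusted p = 0.0251 by edgeR), and its 3′ end overlaps ANKS1B on the opposite strand. CYCS, the gene of cytochrome c, and XIAP, a caspase inhibitor, were not called and had log2 fold changes of −0.12 and 0.20. DIABLO had at most 1 count in any library, and its 3′ end overlaps 3 other annotated genes.

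Upstream, DNA damage signalling and the ATF4 stress response are both known to switch on BBC3 and PMAIP1. Of 7 damage-responsive genes outside the family, 6 were tested, and 3 were lower (CDKN1A, GDF15 and SESN1) and 0 higher by edgeR, with 0 higher at an unadjusted p under 0.05 and 0 higher by DESeq2. CDKN1A, the p21 inhibitor gene, was the lowest by fold, at 152 ± 10.3 CPM with DMSO against 23.9 ± 4.49 CPM with abemaciclib (SD, n = 3 in each group) and a log2 fold change of −2.66. The call of SESN1 was lost with DESeq2 (adjusted p = 0.0666) and without any 1 of DMSO replicates 2 and 3 and abemaciclib replicates 2 and 3 (adjusted p from 0.0663 to 0.11 in edgeR). The other 3 genes had log2 fold changes from −0.51 to −0.18. Over all genes tested, 12.5% were called higher and 13.3% lower.

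Of 7 genes of the ATF4 stress response, 6 were tested and all 6 were lower (ATF4, DDIT3, TRIB3, CHAC1, ATF3 and SESN2), with 0 higher by edgeR, 0 at an unadjusted p under 0.05 and 0 higher by DESeq2. CHAC1 had the strongest fall, −4.16 on the log2 scale, on counts of 62 to 81 per DMSO library and 3 to 7 per abemaciclib library. DDIT3, which encodes CHOP, overlaps MARS1 on the opposite strand and is uncertain. The shares of all genes tested that were called were 12.5% higher and 13.3% lower. These lists were written with earlier results of these data known, so their direction is no independent support. The 2 tested forkhead genes, FOXO3 and FOXO4, did not pass the threshold (0 higher and 0 lower by edgeR at an adjusted or unadjusted p under 0.05, and 0 by DESeq2), with log2 fold changes of −0.40 and −0.26. Whether any of these genes has a part in the change of a family member was not tested.

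With all libraries kept, the log2 fold changes of the 5 called genes moved little across the other tests, scalings and filters. They moved more when a library was left out, and both ends of each range over all alternatives came from such fits. That of BCL2 lay between 0.88 and 1.02, that of BCL2L1 between 0.59 and 0.79, that of BBC3 between −2.41 and −2.03 and that of BAX between −2.02 and −1.46. Each of these 4 kept its call in all 13 alternatives. BID ranged from 0.51 to 0.79 and kept its call in 9.

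**Figure D4:**
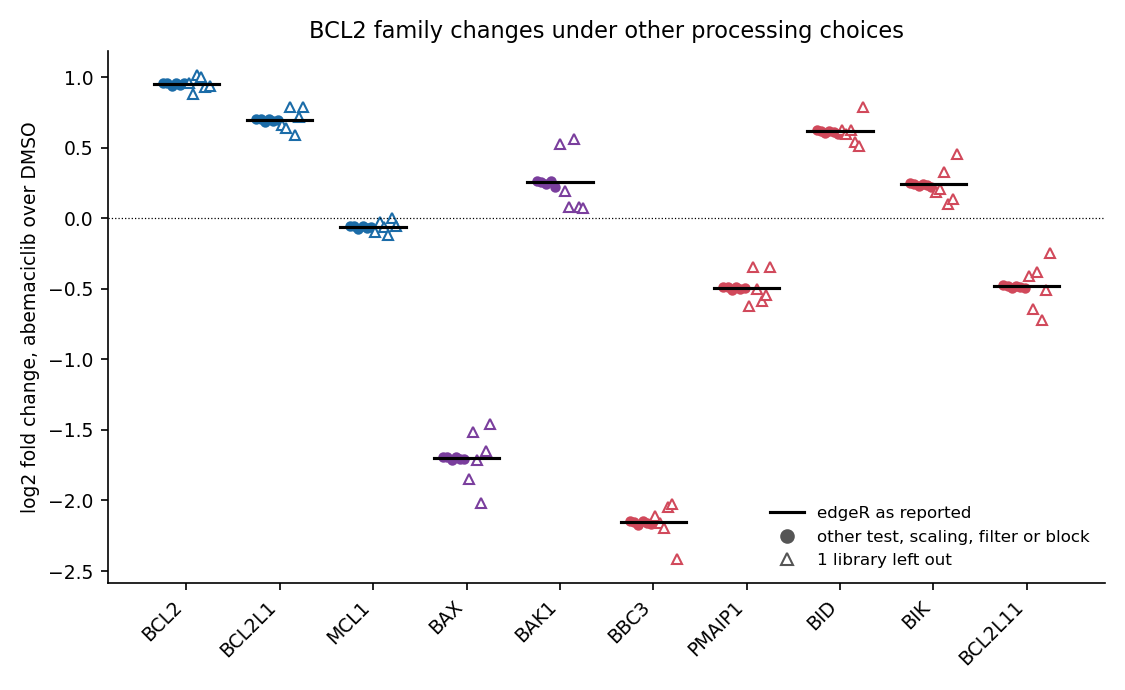
Log2 fold change of abemaciclib over DMSO (y axis) of each family gene as reported (black line), with another test, scaling, filter or a replicate block (filled circles) and with 1 library left out (open triangles). The points of BCL2, BCL2L1 and BID stay above 0 and those of BBC3 and BAX below it, while the points of MCL1 lie close to 0.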

How the data were processed

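RNA-seq libraries of parental ZR-75-1 cells (3 with DMSO, 3 with abemaciclib) were grouped by their titles. The authors made Lexogen 3′ mRNA libraries, trimmed the single-end reads (BBDuk), aligned them with STAR 2.7.5b to the hg38 genome and counted reads per GENCODE gene with featureCounts 2.0.1. The deposited values are these raw counts, not normalized or filtered. Whether the counting used the strand is not given in the sources used here. Names were matched by identifier for 60445 of 60656 genes, and gene positions come from a later GENCODE release for the same genome.

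Abemaciclib was compared with DMSO by the quasi-likelihood test of edgeR 4.0.16 under R 4.3.3, after filterByExpr and TMM scaling. P values were adjusted by the Benjamini–Hochberg method over all 10863 genes that passed the filter, with 0.05 as the threshold. A standard error is the log2 fold change divided by the square root of F, and intervals are 95%. CPM are scaled by TMM. The script was tested on simulated counts. Alternatives were DESeq2 1.42.0, edgeR with DESeq2 size factors or with library totals alone, no filter, at least 10 counts in every library, a replicate block, a threshold of 0.01, and each library left out.

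Named were the 10 family genes, the tested genes of the wider family and, in each other list, the called genes with the largest rise and fall. Genes named beyond that were chosen after their values were seen. The family genes, lists and motifs were chosen with earlier results of these data known. Some genes and 1 other motif searched are not reported here. P values weigh the difference between the treatments against the spread between these libraries.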

Additional observations from a re-analysis of the deposited data

How the results depend on the processing

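Counting each comparison once per alternative gave 333 values. Of these, 324 were counted as held. For a gene this meant the same call and direction, and for a sum or ratio a shift below its SD. For a count it meant a change within a fixed factor. That factor let family genes called higher go from 3 to 2, and all genes called lower from 1442 to 965. Some of the 324 could not change, namely ratios of sums under another scaling and means of a treatment that lost no library. Of the values not held, 4 moved, 4 were weaker and 1 reversed. With an adjusted p under 0.01, BID (0.62) was no longer called, and 807 genes in all were higher in place of 1354. With each library omitted in turn, BID had log2 fold changes of 0.51 to 0.79, and MCL1, which is not called, of −0.12 to 0.0054, so its sign changed without abemaciclib replicate 2. Wider family genes called higher were 0 to 1, and mitochondrial pathway genes called lower were 0 to 1. BCL2L12, not called either, ranged from −0.13 to 0.02, above 0 without DMSO replicate 1 (0.019) and without abemaciclib replicate 3 (0.0045). BAD ranged from −0.04 without abemaciclib replicate 1 to 0.67 without abemaciclib replicate 3. The causes of these shifts were not tested.

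Replicate numbers are shared by the 2 treatments, but same-numbered libraries did not deviate together (r = −0.069, 0.003 and −0.114 over 9739 genes, where genes are not independent). With a replicate block, 3 family genes were higher and 2 lower, as without it, and all genes called were 1139 higher and 1280 lower. Scaled by library totals alone, 45.7% of called genes were higher, against 48.4%. Depth limits BAK1, BIK and BAX, which had 9 to 57 counts per library.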
